A study of Drosophila melanogaster with 2 samples.

Results

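EB1 is the largest of the 3 enteroblast classes that the authors annotated in the adult fly midgut, and it is described here across genes and at both ages. Its members were the cells that the authors' deposited cell table calls EB1, which made 1369 of 4184 cells. Of these, 399 came from the day 3 library (of 1473 cells) and 970 from the day 1 library (of 2711 cells). The flies were Drosophila melanogaster of the Canton S wild type strain, all female, aged 3 days or 1 day as adults, with no transgene or treatment named in the labels. Midgut epithelial cells were dissociated and captured in droplets with Chromium v3.1 chemistry, which tags each captured transcript with a unique molecular identifier (UMI). Each age had 1 library, so no test between ages was possible, no p-value was computed, and age and library cannot be told apart.

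In the fly midgut, intestinal stem cells renew the lining and carry the ligand Delta on their surface. Delta binds the receptor Notch on a daughter cell, and the cleaved receptor then acts with Su(H) to switch on genes of the E(spl) complex. A daughter with strong Notch activity becomes an enteroblast, a post-mitotic precursor that later grows into an absorptive enterocyte. The transcription factor esg keeps stem cells and enteroblasts in the progenitor state, and klu is a zinc finger repressor known for its role in enteroblasts.

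EB1 made up 27.1% of cells at day 3 and 35.8% at day 1, or 32.8% of the progenitors (ISC1, ISC2, EB1, EB2 and EB3) at day 3 and 44.1% at day 1. It was set against the annotated stem cell classes ISC1 (361 cells at day 3, 534 at day 1) and ISC2 (264 and 417), and against the second enteroblast class, EB2 (102 and 204). The libraries held 58700717 UMIs at day 3 and 86114751 at day 1. The median EB1 cell held 45334 UMIs at day 3 (quartiles 31191.5 and 58656) and 34191 at day 1 (25402.2 and 47002.8), and the median number of detected genes was 3267 and 2909. In the authors' own clustering, 382 EB1 cells (95.7%) of day 3 and 958 (98.8%) of day 1 fell in cluster 0. The label transfer columns also called 393 EB1 cells of day 3 and 959 of day 1 EB1, with a median score of 0.996 and 0.991. Only 1 cell barcode occurred in both libraries, and 0 barcodes were EB1 in both.

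A level is the mean over cells of a gene's depth-corrected count, scaled so that each cell totals 10000. Differences are log2 ratios of such levels after adding 0.1 per 10000 to both, which understates the difference of low genes. The cells were clustered on these same genes, so differences between EB1 and another class are a description and were not tested.

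The label was first checked against esg, klu and E(spl)m3-HLH, the markers fixed for EB1. The gene esg (chromosome 2L, 15333866 to 15336138, plus strand, BDGP6) had a level of 7.23 at day 3 and 6.39 at day 1 in EB1, against 3.70 and 3.33 in ISC1 and 1.69 and 1.51 in EB2. In ISC2 its level was 6.96 at day 3 and 6.45 at day 1, and in the EC-like class 8.17 and 6.67, so esg set EB1 apart from ISC1 and EB2 but not from ISC2 or the EC-like cells. The gene klu (3L, 10981171 to 11009188, minus strand) had a level of 2.99 at day 3 and 2.78 at day 1 in EB1, above ISC1 (1.63 and 1.48), ISC2 (1.87 and 1.29) and EB2 (0.815 and 0.808) in both libraries. EB3 stood next to EB1 in klu with 2.57 and 2.88, and the order of EB1 and EB3 differed between the libraries. E(spl)m3-HLH (3R, 26021823 to 26023127, plus strand), a Notch target, had 3.60 at day 3 and 3.24 at day 1 in EB1. That was above ISC1 (2.51 and 2.08) and EB2 (1.53 and 1.48) and below ISC2 (4.54 and 3.53), EB3 (4.43 and 4.20) and the EC-like class (4.48 and 3.81). Enteroendocrine cells had an esg level of 6.59 and 5.22, not far below EB1. All 3 markers were thus higher in EB1 than in ISC1, EB2 and enterocytes in both libraries, while esg and E(spl)m3-HLH did not single EB1 out among all classes.

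**Figure D1:**
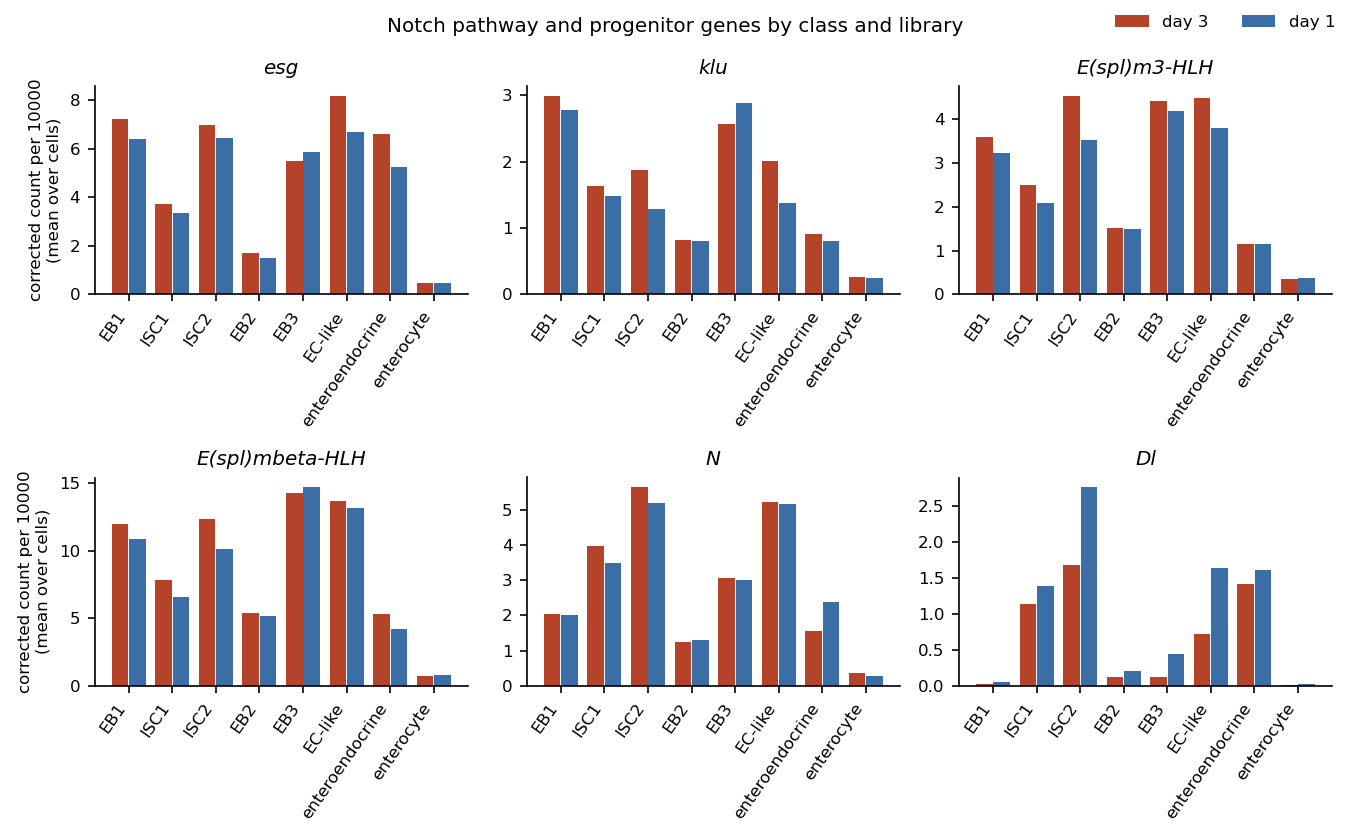
Levels of 6 Notch pathway and progenitor genes in each class (mean corrected count per 10000 on linear axes from 0), with the day 3 library left of the day 1 library; each bar is 1 library and carries no error bar. In EB1, esg stood at 7.23 and 6.39 and klu at 2.99 and 2.78, while Dl was at 0.0217 and 0.0522.

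Shares of cells with a marker were compared after rebuilt UMI counts were thinned to 4000 UMIs per cell. Counts were rebuilt only for cells no deeper than the overall median of 28085.5 UMIs. That limit left 70 of 399 EB1 cells of day 3 and 322 of 970 of day 1 (median depth 23468 and 22537.5 UMIs before thinning). ISC2 kept 190 of 264 and 358 of 417, so the shares describe the shallower EB1 cells beside most ISC2 cells. At 4000 UMIs esg was detected in 97.1% of these EB1 cells at day 3 (exact 95% interval 90.1 to 99.7) and 87.0% at day 1 (82.8 to 90.4). In ISC1 it was detected in 70.5% and 69.0% of cells. The share with klu was 81.4% at day 3 (70.3 to 89.7) and 68.6% at day 1 (63.3 to 73.7) in EB1, against 38.8% and 36.7% in ISC1 and 41.6% and 31.0% in ISC2. All 3 markers were detected together in 68.6% of EB1 cells at day 3 (56.4 to 79.1) and 45.7% at day 1 (40.1 to 51.3), against 18.6% and 14.3% of ISC1 cells and 29.5% and 18.7% of ISC2 cells. Enterocytes, which should lack these genes, had all 3 in 0 of 27 cells at day 3, which allows a share of up to 11.1%, and in 0 of 28 at day 1; their median depth was 10461 and 12050.5 UMIs. These intervals cover counting error only.

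Markers of enteroendocrine cells, visceral muscle, hemocytes and fat body were near 0 in EB1, while enterocyte markers were low only beside enterocytes. The 5 enteroendocrine markers (pros, Tk, AstC, NPF and nrv3) summed to a level of 0.163 at day 3 and 0.157 at day 1 in EB1, against 712 and 645 in enteroendocrine cells. The 6 enterocyte markers summed to 2.60 and 3.21 in EB1, against 591 and 521 in enterocytes. Their sum was 2.30 and 3.05 in ISC1, 2.63 and 3.45 in ISC2, and 3.49 and 4.29 in EB2. Markers of visceral muscle summed to 0.033 and 0.0193, of hemocytes to 0.000863 and 0.00574, of fat body to 0.0103 and 0.0169, and of neurons to 0.466 and 0.327.

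The Notch pathway in EB1 combined little ligand with a receptor level between the stem cell classes and EB2. Dl, which encodes the ligand Delta (3R, 19302731 to 19326217, minus strand), had a level of 0.0217 at day 3 and 0.0522 at day 1 in EB1, against 1.14 and 1.38 in ISC1 and 1.69 and 2.76 in ISC2. The log2 difference was -3.35 and -3.28 against ISC1 and -3.88 and -4.23 against ISC2. After thinning, Dl was detected in 0 of 70 EB1 cells at day 3 and in 0.621% at day 1, against 29.5% and 37.8% of ISC1 cells and 37.9% and 54.7% of ISC2 cells. At each cell's own depth it was detected in 7.14% of the same EB1 cells at day 3 and 4.97% at day 1, against 57.4% and 62.9% of ISC1 cells. The ligand was thus rare but not absent in EB1 in both libraries, and EB2 too had little of it (a level of 0.123 and 0.204). The receptor gene N (X, 3134870 to 3172221, plus strand) had 2.05 at day 3 and 2.01 at day 1 in EB1, lower than in ISC1 (3.97 and 3.48) and ISC2 (5.64 and 5.20) and higher than in EB2 (1.25 and 1.30). It was detected in 72.9% and 61.8% of thinned EB1 cells. The gene fng, whose product adds sugars to Notch and alters its response to ligands, was higher in EB1 than in ISC1, ISC2 and EB2. Its level was 1.14 at day 3 and 1.47 at day 1 in EB1, against 0.303 and 0.408 in ISC1, 0.258 and 0.543 in ISC2, and 0.485 and 0.871 in EB2.

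Among Notch targets, E(spl)mbeta-HLH (3R, 26005046 to 26006023, minus strand) had a level of 12 at day 3 and 10.9 at day 1 in EB1, close to ISC2 (12.4 and 10.2) and above ISC1 (7.87 and 6.54) and EB2 (5.41 and 5.16). EB3 had the higher level of 14.3 and 14.7. E(spl)malpha-BFM (3R, 26010893 to 26011568, plus strand), a Bearded family inhibitor of Delta endocytosis, had 4.81 and 5.37 in EB1, against 8.42 and 7.91 in ISC2, 3.37 and 3.34 in ISC1, and 1.46 and 1.78 in EB2. E(spl)m7-HLH was nearly absent, at 0.0523 and 0.0376 in EB1 against 0.426 and 0.277 in ISC1 and 0.339 and 0.215 in ISC2. The targets thus did not all differ in one direction between EB1 and the stem cell classes. Su(H), the DNA-binding partner of Notch, was low in EB1 in both libraries, at 0.156 and 0.107.

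Progenitor transcription factors were described next. Of 17 that entered the comparison with EB2, 5 (esg, klu, zfh2, hdc and cbt) were at least 2-fold higher in EB1 in both libraries and 0 lower. The list's median log2 difference was 0.61 at day 3 and 0.56 at day 1, beside -0.33 and -0.40 over all 5251 genes whose mean reached 0.1 per 10000 in either class. In that set, 4.11% of genes were at least 2-fold higher in EB1 and 18% lower. The homeobox gene zfh2 had 0.753 at day 3 and 0.742 at day 1 in EB1, against 0.0814 and 0.0823 in EB2. Outside this list, the gene bun, of the TSC22 family, had 24.8 and 21.6 in EB1, against 4.95 and 4.13 in EB2. It was close to its ISC2 level of 24.6 and 19.3, and was listed here under enterocyte transcription factors and markers. The gene hdc (headcase) had 7.83 and 8.91 in EB1, below ISC2 (16.2 and 18.3) and above EB2 (2.95 and 2.10). Sox21a, an HMG-box factor needed for enteroblast maturation, differed little between the classes, with 2.65 and 2.35 in EB1 against 1.85 and 1.88 in ISC1, 2.32 and 2.37 in ISC2, and 1.57 and 1.79 in EB2. Against ISC1, of 17 such genes, cbt was at least 2-fold higher in EB1 in both libraries and sna and chn lower, beside 2.04% higher and 9.57% lower among 4963 genes. The zinc finger factor gene cbt had 1.25 and 1.22 in EB1, against 0.456 and 0.490 in ISC1. The repressor gene chn had 0.0525 and 0.0304 in EB1, against 0.766 and 0.662 in ISC1 and 1.10 and 0.899 in ISC2.

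The contrast with ISC1 covered 2019 genes whose mean reached 0.5 per 10000 in 1 class, with a corrected count above 0 in at least 10% of its cells. Of these, 77 (3.81%) were at least 2-fold higher in EB1 in both libraries and 342 (16.9%) lower. Against ISC2, 56 of 1703 genes were higher (3.29%) and 34 lower (2%). Against EB2, 168 of 2309 were higher (7.28%) and 766 lower (33.2%). By these counts EB1 lay nearest to ISC2 and farthest from EB2, and 0 genes were past 2-fold in opposite directions in the 2 libraries. The split between higher and lower moved with the scale: with ribosomal protein genes left out of each cell's total, 116 genes were higher and 211 lower against ISC1, and 279 higher and 442 lower against EB2. Ribosomal protein genes held a median of 56.8% of counts in EB1 cells at day 3 and 58.3% at day 1, against 51.3% and 52.8% in ISC1, 58.6% and 60.0% in ISC2, and 45.2% and 47.2% in EB2. That scaling moved the median log2 difference over all tested genes to -0.11 and -0.07 against ISC1, beside -0.32 and -0.29 with all genes, and to -0.24 and -0.17 against EB2, beside -0.65 and -0.57. Each difference past 2-fold of a gene named below kept its direction under both scales.

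The genes that set EB1 apart from all 3 classes at once were ranked by the least favourable of the 6 log2 differences per gene, and the 10 at each end were taken. Highest was stl, which encodes a secreted metalloprotease of the ADAMTS family. Its level was 1.23 at day 3 and 1.20 at day 1 in EB1, against 0.0626 and 0.0432 in ISC1, 0.0708 and 0.0593 in ISC2, and 0.0439 and 0.0417 in EB2. EB3 had an intermediate level of 0.371 and 0.815. CG17145 had 0.992 and 1.52 in EB1, against at most 0.0923 in any library of the other 3 classes, with EB3 again near EB1 (0.843 and 0.949). The gene unc-104, a kinesin motor that carries vesicles along microtubules in neurons, had 4.57 and 3.95 in EB1, against 0.586 and 0.401 in ISC1, 0.657 and 0.517 in ISC2, and 1.13 and 0.737 in EB2. In thinned cells unc-104 was detected in 60.0% of EB1 cells at day 3 (47.6 to 71.5) and 65.2% at day 1 (59.7 to 70.4), against 3.88% and 6.12% of ISC1 cells and 3.70% and 3.57% of enterocytes. EB3 was nearer to EB1, with levels of 2.74 and 2.85 and detection in 1 of 12 cells at day 3 and 45.9% at day 1. At each cell's own depth unc-104 was detected in 80.0% and 81.1% of EB1 cells, against 9 of 12 EB3 cells at day 3 and 59.5% at day 1. The gap in detection between EB1 and ISC1 was wider for unc-104 than for esg or klu in both libraries. Because unc-104 was picked by its difference in these same cells, while esg and klu were fixed markers, this does not rate it as a marker.

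CG44085 had a level of 2.04 at day 3 and 1.72 at day 1 in EB1, against at most 0.455 in the other 3 classes. CG17778 had 9.98 and 11.3 in EB1, against at most 3.30 in them, but was higher still in enteroendocrine cells (35.2 and 19.5). CG11155 had 0.665 and 0.567, CG9360 had 1.32 and 0.903, hebe had 1.28 and 0.867, CG10433 had 0.806 and 0.623, and the glutathione transferase gene GstT4 had 0.719 and 0.265. All 5 were at least 2-fold higher in EB1 than in each of ISC1, ISC2 and EB2 in both libraries, although hebe was higher in enterocytes (4.54 and 6.91) than in EB1.

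At the other end stood Pen, which encodes an importin alpha of the nuclear import machinery. Its level was 0.0179 at day 3 and 0.0235 at day 1 in EB1, against 2.93 and 2.36 in ISC1, 0.830 and 0.603 in ISC2, and 0.588 and 0.437 in EB2. The log2 differences were -4.68 and -4.31 against ISC1, -2.98 and -2.51 against ISC2, and -2.55 and -2.12 against EB2. Outside these 3 classes Pen was rare too. Among thinned cells, the share with Pen was 0% and 2.17% in EB1, and 60.5% and 54.8% in ISC1. The EC-like class had 0.813% and 7.58%, and enterocytes 0% and 3.57%. For EB3 it was 1 of 12 cells at day 3 and 10.8% at day 1. Low Pen was therefore not limited to EB1, although at day 1 its share was lowest there. The enzyme gene dUTPase, which keeps uracil out of DNA, had 0.537 and 0.616 in EB1, against 4.90 and 4.76 in ISC1, 2.03 and 1.56 in ISC2, and 2.53 and 2.89 in EB2. The aquaporin gene Prip had 0.0345 and 0.0435 in EB1, against 1.17 and 1.05 in EB2 and 0.904 and 0.815 in ISC1. The nucleolar GTPase gene Non2 had 0.481 and 0.587 in EB1, against 3.02 and 3.1 in ISC1, and Pabp2, which encodes the nuclear poly(A) binding protein, had 0.297 and 0.331, against 1.37 and 1.24. The small heat shock gene Hsp23 had 1.46 and 1.13 in EB1, against 4.28 and 2.93 in ISC1, 3.55 and 2.67 in ISC2, and 3.72 and 4.79 in EB2, and its level in EB3 was 15.7 and 11.5. With rebuilt counts of shallow cells the Hsp23 difference from EB2 turned to 0.31, with 6 and 24 EB2 cells left. The other 4 genes at this end were babos, Lmpt, CG5399 and CG16985, all at least 2-fold lower in EB1 in the 6 differences.

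**Figure D2:**
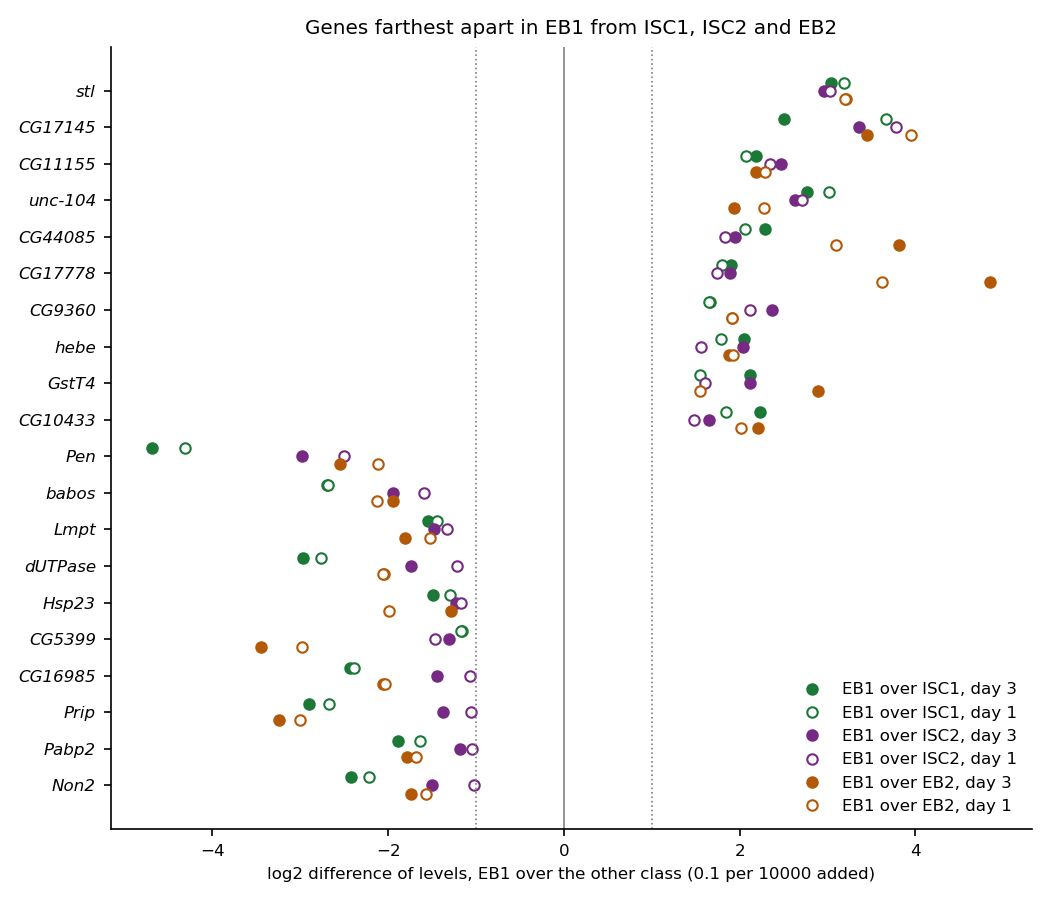
Log2 differences of the 10 genes highest and the 10 lowest in EB1 against ISC1, ISC2 and EB2 together, with filled circles for day 3, open circles for day 1 and dotted lines at 2-fold. The values for stl lay near 3 in all 6 contrasts, and Pen reached -4.68 against ISC1 at day 3.

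Against ISC1, EB1 had lower levels of genes known for cell division and ribosome assembly. Of 33 cell cycle and DNA replication genes that entered, 22 were at least 2-fold lower in EB1 in both libraries and 0 higher, with a median log2 difference of -1.56 at day 3 and -1.47 at day 1. Over all 4963 genes at that minimum the medians were -0.24 and -0.23, and 9.57% were lower and 2.04% higher. PCNA, the sliding clamp of DNA polymerase, had a level of 0.0699 at day 3 and 0.0735 at day 1 in EB1, against 1.37 and 1.44 in ISC1 (log2 -3.11 and -3.15). RnrS, a subunit of ribonucleotide reductase, had 0.0979 and 0.126, against 0.829 and 0.723. The mitotic kinase genes polo (0.00794 and 0.0105 in EB1, against 0.516 and 0.423 in ISC1) and aurB (0.00608 and 0.0147, against 0.514 and 0.636) were near 0 in EB1. So was stg, the phosphatase that starts mitosis, at 0.0104 and 0.0119 against 0.271 and 0.235. Of 22 ribosome biogenesis genes, 10 were at least 2-fold lower and 0 higher, with medians of -0.99 and -1.02. Nop56, a core protein of the nucleolar box C/D particles, had 1.34 and 1.45 in EB1, against 3.86 and 4.0 in ISC1.

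Higher in EB1 than in ISC1 were Thor and scyl, which restrain growth, and the lipid droplet genes Lsd-2 and bmm. Of 21 insulin, TOR and growth genes, 2 were at least 2-fold higher in EB1 in both libraries and 1 lower. Over all 4963 genes, 2.04% were higher and 9.57% lower, and the lipid and immune counts below have the same background. The insulin list's medians of 0.17 and 0.16 compare with -0.24 and -0.23 over all genes. Thor, the translation inhibitor 4E-BP, had a level of 19.8 at day 3 and 23.9 at day 1 in EB1, against 7.29 and 8.73 in ISC1, 10.2 and 14.7 in ISC2, and 5.85 and 6.70 in EB2. The gene scyl, a negative regulator of TOR, had 8.38 and 7.25 in EB1, against 3.96 and 3.19 in ISC1. The exception was ImpL2, a secreted binder of insulin-like peptides, with 0.0129 and 0.0147 in EB1 against 0.231 and 0.145 in ISC1. Of 15 lipid genes, 2 were higher and 0 lower, with medians of 0.10 and 0.18. Lsd-2, the perilipin that coats lipid droplets, had 12.1 and 8.03 in EB1, against 3.72 and 2.80 in ISC1. The lipase gene bmm, whose product breaks down those droplets, had 1.49 and 0.832, against 0.555 and 0.333. Of 14 gut immunity genes, pirk and the NF-kappaB factor gene Dif were higher and 0 lower: Dif had 0.837 and 0.686 in EB1, against 0.353 and 0.290 in ISC1.

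Redox genes diverged from one another. Prx2540-1 and Prx2540-2, which encode peroxiredoxins, were among the 8 genes highest in EB1 over ISC1, with levels of 12.1 at day 3 and 3.73 at day 1 for Prx2540-1 in EB1, against 1.51 and 0.745 in ISC1. Prx2540-2 had 4.57 and 2.96, against 0.538 and 0.559. These genes and their neighbour CG12896 are near-identical copies, so reads could be split between them, and the 3 values are not independent. The cytochrome P450 gene Cyp6a9 had 0.991 and 0.909 in EB1, against 0.107 and 0.112 in ISC1. In contrast, Jafrac1, another peroxiredoxin, had 2.37 and 2.24 in EB1, against 6.90 and 7.08 in ISC1, and the thioredoxin gene Trx-2 had 1.89 and 1.99, against 5.37 and 5.31. GstS1 had 0.409 and 0.436, against 1.29 and 1.09. Of the 24 detoxification and redox genes that entered, 2 were higher and 3 lower in both libraries, and the lower share was near the 9.57% over all genes.

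EB1 and ISC2 were close in most lists, and the genes that parted them were few. Dl headed the lower end, followed by Cpr51A, a cuticle protein gene, with 0.261 at day 3 and 0.0924 at day 1 in EB1 against 2.71 and 1.90 in ISC2. Glutamate dehydrogenase, Gdh, had 0.0481 and 0.0399 in EB1, against 0.899 and 0.991 in ISC2. The adhesion gene ed had 0.295 and 0.264 in EB1, against 2.60 and 2.13 in ISC2. The forkhead factor gene jumu had 0.0619 and 0.0371, against 0.742 and 0.565, and nrv3, a sodium pump subunit listed here as an enteroendocrine marker, had 0.0382 and 0.056, against 0.696 and 0.658. EB1 was lower than ISC2 for each of these genes in both libraries. Of 18 progenitor transcription factors, 3 (hdc, sc and chn) were at least 2-fold lower in EB1 and 0 higher. The background among 4445 genes was 1.66% higher and 1.19% lower.

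At the higher end, after CG17145 and stl, stood CG30090, with a level of 2.83 at day 3 and 2.85 at day 1 in EB1 against 0.234 and 0.360 in ISC2. CG6287, annotated as a phosphoglycerate dehydrogenase of serine synthesis, had 0.618 and 0.520, against 0.0568 and 0.037. Of 15 lipid genes, Npc2a, a sterol carrier, and fabp, a fatty acid binding protein, were at least 2-fold higher in EB1 and 0 lower. The list medians were 0.44 and 0.39, beside 0.03 and 0.02 over all 4445 genes, of which 1.66% were higher and 1.19% lower. Npc2a had 5.99 and 9.34 in EB1, against 2.85 and 3.57 in ISC2. Cell cycle genes differed less than they did against ISC1: 16 entered, 2 (polo and aurB) were at least 2-fold lower and 0 higher, and the medians were -0.64 and -0.49. PCNA in ISC2 was 0.148 and 0.157, nearer to EB1 than to ISC1.

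The 8 genes lowest in EB1 against EB2 included Ssk, Tsp2A and CG13704, all of the smooth septate junction. The smooth septate junction, which seals neighbouring enterocytes, was nearly unexpressed in EB1. Its gene Ssk had a level of 0.0365 at day 3 and 0.0439 at day 1 in EB1, against 8.51 and 6.49 in EB2 (log2 -5.98 and -5.52). Tsp2A had 0.0543 and 0.057 in EB1, against 6.21 and 4.85 in EB2, and mesh had 0.0034 and 0.00471, against 0.590 and 0.282. CG13704, which the reference annotation lists under the name hoka, another component of that junction, had 0.0474 and 0.0458, against 5.40 and 4.21. All 4 of these junction genes were therefore lower in EB1 than in EB2 in both libraries. Low Ssk and Tsp2A were not particular to EB1, however. Among thinned cells, the share with Ssk was 0% at day 3 and 2.17% at day 1 in EB1. It was 1.05% and 1.96% in ISC2, and 2.44% and 3.37% in the EC-like class. For Tsp2A the share was 2.86% and 2.17% in EB1, 4.21% and 3.35% in ISC2, and 6.98% and 6.80% in ISC1. The POU factor gene nub, which promotes enterocyte fate, had 0.0188 and 0.0158 in EB1, against 1.17 and 1.16 in EB2. Of the 8 enterocyte transcription factors and markers that entered, nub and Myo61F were at least 2-fold lower in EB1 and vnd and bun higher. Over all 5251 genes, 18% were lower and 4.11% higher. The list's medians of -0.25 and -0.31 were close to the -0.33 and -0.40 over all genes. Also among the 8 lowest were CG13321 (0.354 and 0.474 in EB1, against 23.8 and 24.2 in EB2) and CG9568 (0.103 and 0.108, against 12.6 and 9.09).

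Of 22 ribosome biogenesis genes, 14 were at least 2-fold lower in EB1 than in EB2 in both libraries and 1 higher, with medians of -1.18 at day 3 and -1.39 at day 1, beside -0.33 and -0.40 over all genes. Nop56 had 1.34 and 1.45 in EB1, against 4.82 and 6.0 in EB2. Of 26 cell cycle genes, 7 were lower and 0 higher, beside 18% lower and 4.11% higher over all genes, and PCNA had 0.0699 and 0.0735 in EB1 against 0.915 and 1.34 in EB2. All 7 act in DNA replication or its control. Higher in EB1 were 3 of 4 E(spl) genes, with medians of 1.16 and 1.07, and 4 of 16 EGFR and Ras genes, with 0 lower, beside the same 4.11% and 18%. The feedback inhibitor gene kek1 had 0.773 and 0.525 in EB1, against 0.0757 and 0.0403 in EB2, and aos, a secreted inhibitor of the EGF receptor, had 0.672 and 0.414, against 0.149 and 0.118. REPTOR, a transcription factor held in check by TOR, had 3.54 and 2.39 in EB1, against 0.891 and 0.558. Of the single genes, ATP8B, a lipid flippase gene, had 2.40 and 2.51, against 0.168 and 0.198, and Sirup, an assembly factor of succinate dehydrogenase, had 6.03 and 3.26, against 0.252 and 0.314.

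The remaining lists divided into several genes each way or few genes past 2-fold. Of 22 junction and polarity genes, 3 (nrv2, baz and pyd) were at least 2-fold higher in EB1 than in EB2 and 4 (mesh, Tsp2A, kst and Tsp29Fb) lower, the lower share being near the 18% over all genes. The polarity gene baz had a level of 4.91 at day 3 and 3.52 at day 1 in EB1, against 1.46 and 0.799 in EB2, and kst, a heavy spectrin of the apical cortex, had 2.50 and 1.90, against 6.82 and 5.04. Of 16 immune genes, 4 (PGRP-LC, PGRP-LF, pirk and Dif) were at least 2-fold higher in EB1 than in EB2 and 1 (Drsl2) lower. Over all 5251 genes, 4.11% were higher and 18% lower. By sign alone, 7 of the 16 were higher in both libraries and 9 lower. The immune list's medians were -0.27 and -0.52, beside -0.33 and -0.40 over all genes. PGRP-LC, the receptor of the IMD pathway, had 0.681 and 0.883 in EB1, against 0.157 and 0.172 in EB2. Of 25 stress genes, hid was higher and 5 chaperone genes (Hsp23, Hsp26, Hsp68, Hsc70-3 and Hsp60A) lower than in EB2, again near the 18% over all genes, while Hsp23 alone was past 2-fold against ISC1 and against ISC2. The basement membrane gene LanA had 2.38 and 2.29 in EB1, against 1.02 and 0.984 in EB2, and the perlecan gene trol had 0.174 and 0.160, against 0.813 and 0.592 in ISC1. Of 21 Wnt, BMP and Hippo genes, 0 were past 2-fold against ISC1 or ISC2, and 2 higher and 1 lower against EB2. Of 8 JAK-STAT genes, 0 were past 2-fold against ISC1, and upd3, a cytokine gene, was lower than in EB2 (0.232 and 0.251 in EB1, against 1.52 and 1.16). The digestive enzyme list had 0 genes past 2-fold against any of the 3 classes.

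**Figure D3:**
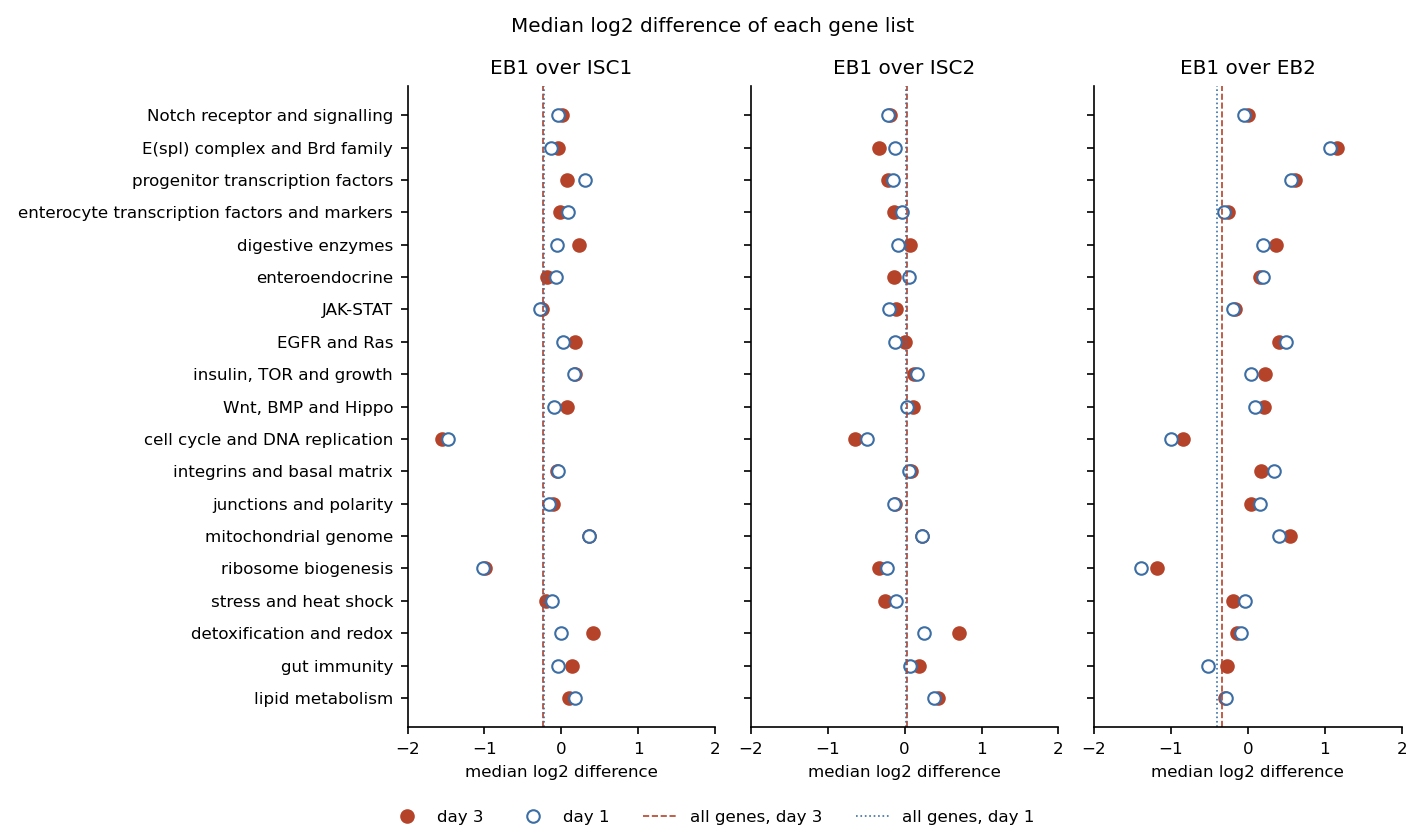
Median log2 difference of each of 19 gene lists in EB1 over ISC1, ISC2 and EB2, with filled circles for day 3, open circles for day 1, and dashed (day 3) and dotted (day 1) lines at the median over all genes. The cell cycle list lay at -1.56 and -1.47 against ISC1, and the ribosome biogenesis list at -1.18 and -1.39 against EB2.

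The share of unspliced UMIs, which comes from transcripts with introns still in place, was measured besides the gene levels. Its median was 8.63% of spliced plus unspliced UMIs per EB1 cell at day 3 (quartiles 6.92 and 10.0) and 7.42% at day 1 (6.13 and 8.79). ISC1 had 6.74% and 5.98%, EB2 had 5.02% and 4.29%, and ISC2 had the higher 9.35% and 7.84%. EB1 thus lay between ISC2 and ISC1 in both libraries, with quartiles wider than the gaps to either. In enterocytes the share was 1.04% and 1.08%. Mitochondrial genes held a median of 3.36% of counts in EB1 cells at day 3 and 2.90% at day 1. That was above ISC1 (2.29% and 2.01%), ISC2 (2.77% and 2.36%) and EB2 (2.09% and 1.94%). It was not above EB3 (3.36% and 3.05%) or the EC-like class (4.20% and 3.76%).

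Between the ages, levels in EB1 were close for most genes. Of 1536 genes, 18 (1.17%) were at least 2-fold higher at day 3 than at day 1 and 5 (0.326%) lower, and the median log2 difference over all of them was 0.01. The genes of EB1 identity kept to this: the log2 difference was 0.18 for esg and 0.10 for klu. Depth per cell was also higher at day 3, and its part in the differences below was not tested.

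The 12 genes highest at day 3 included a peroxiredoxin, a glutathione transferase, a cytochrome P450 and several genes without a name. CG11893 had a level of 1.28 at day 3 and 0.0552 at day 1 in EB1 (log2 3.15), but 1 cell held 18.8% of the day 3 level, and 39% of the 100 rebuilt UMIs of day 3 were in 1 of 70 cells. Its log2 difference in ISC1, ISC2 and EB2 was 1.02, 1.01 and 0.95. CG12868 had 1.68 and 0.202, and was detected in 18.6% of thinned EB1 cells at day 3 (10.3 to 29.7) and 3.42% at day 1 (1.72 to 6.03), and in 29.6% and 21.4% of enterocytes. The part of free RNA in these shares was not tested. Prx2540-1 was found in many cells: it was detected in 81.4% of EB1 cells at day 3 (70.3 to 89.7) and 44.4% at day 1 (38.9 to 50.0), against 21.7% and 13.3% of ISC1 cells and 11.1% and 14.3% of enterocytes. Its log2 difference between ages was 1.67 in EB1, 0.93 in ISC1, 1.17 in ISC2 and 1.30 in EB2, and it was positive in all 4 classes. Also among the 12 highest were CG13659 (1.02 at day 3 and 0.302 at day 1), CG14626 (0.636 and 0.167), the acyl-CoA synthetase gene pdgy (0.805 and 0.30), GstT4 (0.719 and 0.265) and the cytochrome P450 gene Cyp6d4 (0.581 and 0.208).

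Prx2540-1 has 2 neighbours among the 12 genes highest at day 3. Chromosome arm 2R carries Prx2540-2, CG11825, Prx2540-1 and CG12896 in that order within 9198 bases. In EB1 their levels were 4.57 at day 3 and 2.96 at day 1 for Prx2540-2 (log2 0.61), 6.17 and 1.64 for CG11825 (1.85), 12.1 and 3.73 for Prx2540-1 (1.67), and 5.36 and 1.91 for CG12896 (1.44). All 4 were higher at day 3. The genes on both sides were unlike them: SLO2 was at 0.00441 and 0.0029, and RanBPM at 0.396 and 0.403 (log2 -0.02). CG33474 lies inside CG11825 on the other strand and was low, at 0.0724 and 0.0353. CG11893 and CG13659 also share a neighbourhood, on 3R within 12429 bases. The 9 genes there or within 2000 bases of it had a higher level at day 3 than at day 1, by 0.16 to 3.15 on the log2 scale. The median over all 4283 genes was 0.03. The 3.15 was that of CG11893, whose UMIs were concentrated in few cells. Levels of CG31097 (0.0203 and 0.00748), CG31102 (0.0304 and 0.0145) and CG13658 (0.068 and 0.0179) were near 0 in both libraries. The neighbours were picked after the values were seen.

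**Figure D4:**
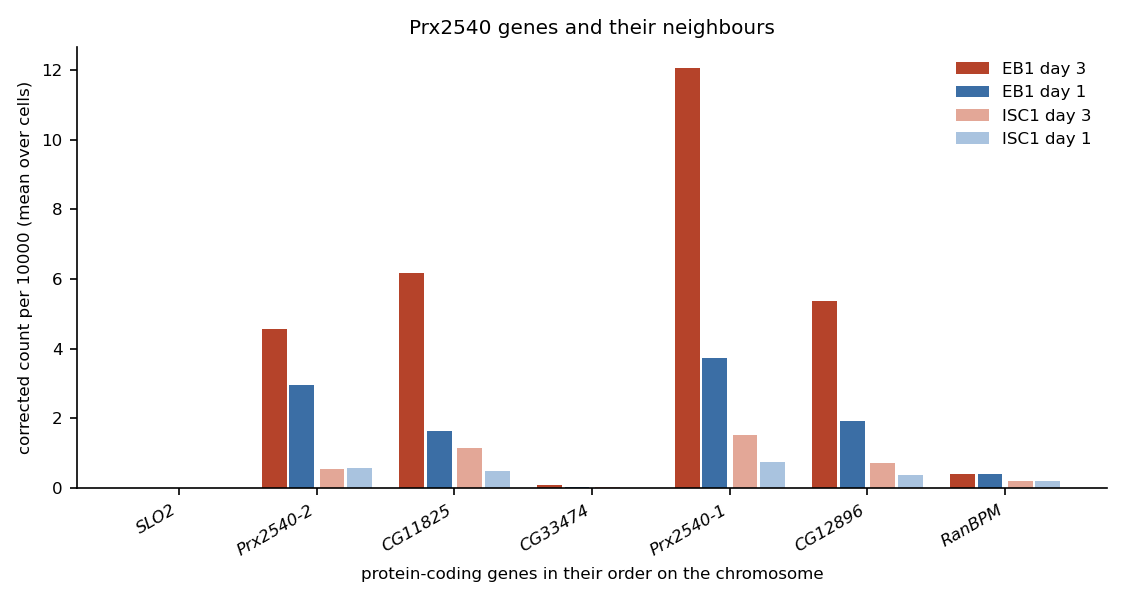
Levels (mean corrected count per 10000, linear axis from 0) of 7 protein-coding genes in their order on 2R, for EB1 and ISC1 with the day 3 bar left of the day 1 bar. Prx2540-2, CG11825, Prx2540-1 and CG12896 stood above their outer neighbours in EB1, and Prx2540-1 was at 12.1 at day 3 and 3.73 at day 1.

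The difference between ages was not even within EB1. The authors' finer clustering at resolution 0.8 divided EB1 mainly into subcluster 0 (117 cells at day 3, 587 at day 1) and subcluster 2 (279 and 358). These subclusters were made from the same genes and held different shares of the libraries. In subcluster 2 Prx2540-1 had 14.5 at day 3 and 5.42 at day 1, and in subcluster 0 it had 6.47 and 2.82, so its log2 difference was 1.40 and 1.17. For CG11893 the difference was 3.56 in subcluster 2 and 0.45 in subcluster 0. Thor, at 17.2 and 16.2 in subcluster 2 and 26.3 and 28.9 in subcluster 0, differed more between subclusters than between ages within either.

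Among immune genes, 3 of 13 were at least 2-fold higher at day 3 in EB1 and 0 lower, beside 0.607% higher and 0.35% lower among 4283 genes, and the list's median was 0.12 beside 0.03. The gene pirk, a negative feedback inhibitor of the IMD pathway, had a level of 2.95 at day 3 and 1.26 at day 1 in EB1. It was detected in 45.7% of thinned EB1 cells at day 3 (33.7 to 58.1) and 22.4% at day 1 (17.9 to 27.3), and in 7.41% and 0% of enterocytes. Thinned ISC2 cells had pirk in 25.8% and 13.4%, and ISC1 cells in 11.6% and 7.82%. PGRP-LB, an amidase that breaks down bacterial peptidoglycan, had 2.50 and 1.11. It was detected in 38.6% and 16.8% of thinned EB1 cells, against 18.5% and 21.4% of enterocytes. The share was 38.8% and 29.6% in ISC1, 48.9% and 31.0% in ISC2, and 35.8% and 18.5% in the EC-like class. Detection of PGRP-LB was thus not particular to EB1. AttD, an antimicrobial peptide gene, had 1.14 and 0.230 and was detected in 5.71% and 1.24% of thinned cells. Of its rebuilt UMIs, 32.5% at day 3 and 38.5% at day 1 were in a single cell, and 10 of 70 cells at day 3 held any. PGRP-LF, which blocks the receptor PGRP-LC, had 1.17 and 0.572, just under 2-fold (log2 0.92). PGRP-LC itself was lower at day 3, with 0.681 against 0.883 at day 1.

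Of 23 detoxification and redox genes, 4 (GstD2, GstD5, GstE6 and Prx2540-1) were at least 2-fold higher at day 3 and 0 lower, beside 0.607% and 0.35% over all genes, with a median of 0.17. GstD2 had 1.88 at day 3 and 0.879 at day 1, but 55.5% of its rebuilt UMIs of day 3 were in 1 of 70 cells, and its log2 difference was 0.73 in subcluster 0 and 0.63 in subcluster 2. GstD5, a glutathione transferase gene, had a level of 0.444 at day 3 and 0.119 at day 1, and GstE6 had 0.599 and 0.222. Rebuilt UMIs of GstD5 were in 13 of 70 EB1 cells at day 3 and 65 of 322 at day 1, so it was not found in a clearly larger share of cells at day 3. Of its 47 UMIs of day 3, 21.3% were in 1 cell. Of 25 stress genes, only hid, an activator of cell death, was higher, at 0.685 and 0.272, and ISC2 had a like difference in it (0.872 and 0.283). All 11 mitochondrial genome genes had a higher level at day 3, with a median log2 difference of 0.52. Of 15 lipid genes 0 were past 2-fold, although bmm had 1.49 and 0.832 and Lsd-2 had 12.1 and 8.03.

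Lower at day 3 were several digestive proteases that enterocytes make. Of the 15 digestive enzyme genes that entered, proteases and others, 5 were at least 2-fold lower and 0 higher, beside 0.35% and 0.607% over all genes, with a median of -0.66. All 5 were proteases of the Jon family. Jon25Biii had 0.137 at day 3 and 1.03 at day 1 in EB1, against 112 and 39.8 in enterocytes. Jon99Fi had 0.110 and 0.593, Jon99Fii 0.118 and 0.603, Jon99Cii 0.179 and 0.512, and Jon65Aii 0.0286 and 0.202. Jon99Fi and Jon99Fii are near-identical copies, between which reads could be split. Outside the list, CG10472 had 0.165 and 0.506. The same genes were lower at day 3 in ISC1, ISC2 and EB2 and higher in enterocytes, and the part of free RNA in these low levels was not tested. Under 2-fold lay eEF5, a translation factor (6.26 at day 3 and 10.6 at day 1 in EB1), with log2 -0.75 in EB1 and between -0.69 and -0.80 in ISC1, ISC2 and EB2. The factor gene luna had 0.548 and 0.999, with log2 -0.76 in EB1 and -0.11, 0.13 and 0.23 in ISC1, ISC2 and EB2. Npc2a (5.99 and 9.34), Orct2 (0.840 and 1.45), Tina-1 (0.592 and 1.04), Cbl (0.522 and 0.870) and yip7 (log2 -0.66) completed the 12.

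**Figure D5:**
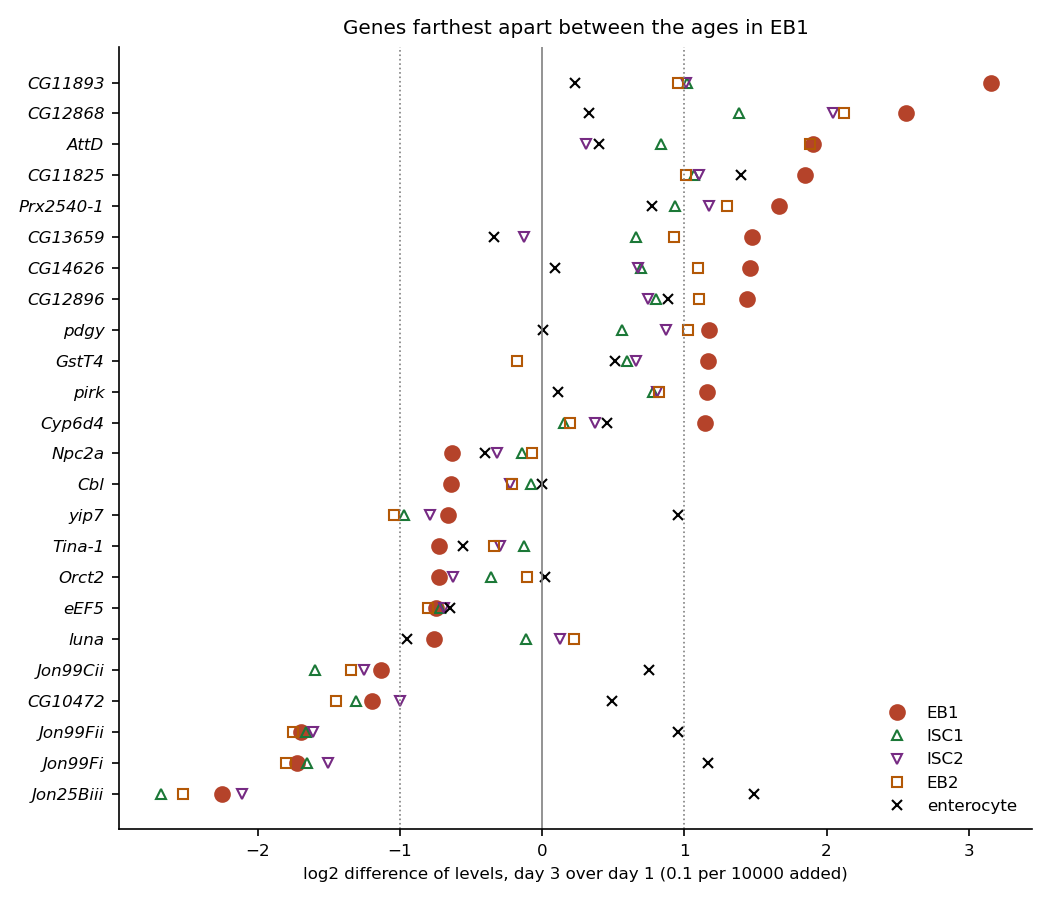
Log2 difference of day 3 over day 1 for the 12 genes highest and the 12 lowest in EB1 (filled circles), with the same genes in ISC1, ISC2, EB2 and enterocytes; dotted lines mark 2-fold. CG11893 stood at 3.15 in EB1 and Jon25Biii at -2.25, where enterocytes had 1.49.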

How the data were processed

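Dissociated midgut epithelial cells of 2 libraries were analysed, 1 at day 3 and 1 at day 1. Reads were processed with Cell Ranger 6.0.1 on BDGP6, per the submitters' processing notes. The cell filters and aligner settings were not given in the sources used here. The deposited expression table held the natural log of 1 plus a depth-corrected count for 9607 genes in 4184 cells. The deposited cell table gave the counts of spliced, unspliced and ambiguous UMIs, the corrected total as a score, percent columns for mitochondrial and ribosomal genes, and fraction columns for doublet neighbour shares and label transfer scores. All 4184 cells carried a deposited singlet call, so no further doublet caller was run. Classes are the authors' deposited annotation.

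Raw UMI counts were recovered by undoing the depth correction with 3 fitted unknowns for each gene. This was limited to the 2092 cells no deeper than the median of 28085.5 UMIs. Per cell, the recovered total was a median of 0.990 of the deposited total (0.972 to 1.06). Detection used these counts thinned to 4000 UMIs, with exact Clopper-Pearson 95% intervals, and 3 counts as the limit where the count was 0. Fitting and differences were tested on simulated data. Genes were named by rule: the 10 highest and lowest against all 3 classes, 8 per class, 12 between ages, and members of 19 lists (490 genes, 447 in the table). List genes needed 0.1 per 10000 in 1 of the groups compared. The members, lists and rule were chosen with earlier results of these data known.

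Alternatives were another pseudocount, no detection filter, the recovered counts, summed counts, other depths, and the highest cell left out. Scaling without the 87 ribosomal protein genes (for genes and for lists), cells of 20000 to 50000 UMIs and EB1 core cells were added after seeing the data. Gene loci came from the BDGP6 annotation, in which 9132 symbols matched by name and 459 by a synonym. Python 3.11.15, numpy 2.4.6, scipy 1.17.1, pandas 2.3.3, numba 0.67.0 and matplotlib 3.10.9 were used.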

Additional observations from a re-analysis of the deposited data

Results flagged for a closer look

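For 10 genes, the difference between ages in EB1 had the opposite sign in another class, with a log2 size of at least 0.5 in both. Each class had 1 library per age, and none of these differences between classes was tested.

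Most of these were digestive proteases, lower at day 3 in EB1 and higher at day 3 in enterocytes. The log2 difference was -2.25 in EB1 and 1.49 in enterocytes for Jon25Biii, -1.72 and 1.16 for Jon99Fi, -1.69 and 0.96 for Jon99Fii, -1.23 and 0.56 for Jon65Aii, -1.13 and 0.75 for Jon99Cii, and -0.66 and 0.95 for yip7. PGRP-LB was at 1.10 in EB1 and -0.55 in enterocytes. GstD2 was at 1.01 in EB1 and -1.03 in ISC2, but 55.5% of its rebuilt EB1 UMIs of day 3 lay in 1 of 70 cells, and its difference was 0.73 and 0.63 in EB1 subclusters 0 and 2. Against enteroendocrine cells, Cyp6d4 was at 1.15 in EB1 and -0.71 there, and GstD5 at 1.31 in EB1 and -0.74 there. Rebuilt UMIs of GstD5 were in only 13 of 70 EB1 cells at day 3 and 65 of 322 at day 1.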

How the results depend on the processing

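No paired analysis was possible because each age had 1 library. A pseudocount of 1 per 10000 gave the lowest counts of genes past 2-fold in each comparison: 18 higher and 48 lower in EB1 over ISC1, 9 and 4 over ISC2, 40 and 137 over EB2, and 5 and 0 at day 3 over day 1. Without the detection filter, 53 genes were lower than in ISC2 and 15 lower at day 3. Rebuilt counts gave 133 higher than ISC1, and 62 higher and 23 lower than ISC2. Scaling without ribosomal protein genes gave 116 and 211 over ISC1, and 279 and 442 over EB2. Of 132 named differences, 70 missed 2-fold with a pseudocount of 1, and 12 did with rebuilt counts, where Hsp23 over EB2 turned to 0.31. The nearer of the list medians in both libraries moved under the pseudocount of 1 to 0.86 for E(spl) genes over EB2, -0.31 for cell cycle over ISC1 and -0.43 for ribosome biogenesis over EB2. Rebuilt counts gave -1.05 for cell cycle over EB2, -1.08 for ribosome biogenesis over ISC1 and -0.69 over EB2, and the scale without ribosomal protein genes -0.87 for the last. Detection varied with depth. In EB1 at day 3 and day 1 it was 100% and 98.8% for esg, 95.7% and 96.9% for klu, and 98.6% and 97.2% for E(spl)m3-HLH at each cell's own depth. At 8000 UMIs it was 95.7% and 97.8% for esg, 91.3% and 84.8% for klu, and 94.2% and 85.8% for E(spl)m3-HLH. With any value above 0 it was 99.9% for esg at day 1, 97.7% and 98.9% for klu, and 98.5% and 98.7% for E(spl)m3-HLH. The unspliced share was 8.39% and 7.24% with ambiguous UMIs in the total, 8.28% and 7.24% over summed UMIs, and 10.2% and 8.55% in cells up to the median depth. Apart from changes that follow from the construction, the cause was not tested. With 70 and 322 EB1 cells in the thinned data, shares of rare transcripts at day 3 carry the wider intervals.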
